A study of Mus musculus with 23 samples.

Results

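The comparison described here is that of mesenchymal with epithelial lines among 23 murine pancreatic ductal adenocarcinoma (PDAC) cell lines. A line was classed as mesenchymal if the log2 signal of Cdh1, the gene of E-cadherin, lay below 8, and as epithelial if it was 8 or more. By this rule 6 lines were mesenchymal (PPT-3250, ASC-5193, PPT-5320, PPT-16992, ASC-53909 and PPT-17728) and the other 17 were epithelial. The classes were therefore set by a measured value of the same arrays, and Cdh1 is described without a test. RNA of untreated low-passage cultures, grown in DMEM with fetal calf serum, was hybridised to Affymetrix arrays of the mouse genome, and each line has a single array. Such an array reads each transcript through a group of short oligonucleotides called a probe set. All signals are given on the log2 scale, so that a difference of 1 is a doubling.

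Where a genotype was listed, the lines came from mice with Cre-activated alleles. In these mice Cre is driven by Ptf1a or Pdx1, genes of pancreatic progenitor cells. Among the mesenchymal lines Cre came from Pdx1-Cre in PPT-3250 and from Ptf1aCre in the other 5. ASC-5193 additionally carried LSL-p53R172H, a mutant allele of the tumour suppressor p53. PPT-3250, PPT-16992, ASC-53909 and PPT-17728 carried the reporter allele LSL-R26Tva-lacZ, and PPT-3250 and PPT-5320 an LSL-PCNA-fLuc luciferase allele, in its ATG form in PPT-3250 and its IRES form in PPT-5320. Of the epithelial lines, PPT-5193, PPT-3107, PPT-5486, PPT-6051 and B-6051 had the mutant p53 allele, with Pdx1-Cre in PPT-6051 and B-6051 and Ptf1aCre in the rest. PPT-5671 and PPT-5748 were listed with Ptf1aCre and without the mutant p53 allele. PPT-5671 had both kinds of reporter allele, PPT-5486 an IRES luciferase allele and PPT-5748 neither kind. The genotype of 10 epithelial lines was not listed in the sources used here. By the number in the name, the mesenchymal lines came from 6 mice and the epithelial lines from 9, and ASC-5193 and PPT-5193 are lines of the same mouse in different classes. Over both classes 5 of the 14 mice gave 14 lines. These counts, and every fit that uses the mouse, take the array named B-152727 as a line of mouse 15272, on the assumption of a typing error in its name. Of the mesenchymal lines 4 had names with the prefix PPT and 2 with ASC, against 8 PPT lines and 9 with other prefixes among the epithelial lines. Allele, prefix and class are thus partly entangled.

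Epithelial cells are held together by E-cadherin in adherens junctions, by claudins and occludin in tight junctions, and by desmosomes anchored to keratin filaments. In epithelial-mesenchymal transition (EMT), a programme of development and wound healing that carcinoma cells can enter, these contacts are lost, and the cells acquire a contractile cytoskeleton and secrete fibrillar matrix. The change is driven by transcription factors of the Snail, Zeb, Twist and Prrx families, several of which repress Cdh1 through E-box motifs. In pancreatic cancer the state is associated with loss of the foregut and glandular programme.

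The Cdh1 signal was 4.29 ± 1.72 (SD, n = 6) in the mesenchymal and 11.12 ± 0.45 (SD, n = 17) in the epithelial lines. Among the former it was 2.22 in PPT-3250, 2.75 in ASC-5193, 3.59 in PPT-16992, 4.81 in PPT-17728, 5.87 in PPT-5320 and 6.48 in ASC-53909. The epithelial lines lay between 10.23 in HEP-5123 and 11.81 in PPT-3107. No line lay within the 3.75 log2 units between ASC-53909 and HEP-5123, the lines just inside and just outside the threshold. No detection calls were used here and no floor of the signals was measured. Signals near or below 3.76, the median of all values, are described as near the lowest signals of the arrays. The sizes of differences that reach into this range are uncertain. The medians of single arrays lay between 3.58 and 3.90.

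The names of the classes were set beside marker genes other than Cdh1. Esrp2 and Prrx1 were named as markers with earlier results of these data known. Their values therefore describe the classes and are no independent check of the names. The epithelial splicing factor gene Esrp2 lay between 2.55 and 4.37 (median 3.66) in the mesenchymal lines. It lay between 6.49 and 8.87 (median 7.99) in the epithelial lines, so that the classes did not overlap. Its log2 difference was -4.22 (standard error 0.29, adjusted p = 4.72e-10 from limma). Prrx1, the gene of a homeobox factor of mesenchyme, lay between 9.23 and 10.79 (median 10.34) in the mesenchymal lines. It lay between 1.91 and 4.98 in 16 of the epithelial lines and reached 8.55 in PPT-5486. The classes again did not overlap, with a log2 difference of 6.75 (standard error 0.65, adjusted p = 1.55e-07). Not all markers followed the classes at an adjusted p under 0.05, as described below. Among the epithelial markers Esrp1, Grhl2, Cldn4 and Cldn7 did not pass. Among the mesenchymal markers Vim, Fn1, Col1a1, Cdh11, Twist1, Snai2 and the brightest probe set of Zeb2 did not.

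PPT-5486 stood apart from the other epithelial lines and only partly matched its class. The mean over 11 epithelial markers other than Cdh1 was 7.66 in PPT-5486, within the 6.47 to 9.66 of its class, and its Cdh1 signal was 10.80. The mean over 12 mesenchymal markers was 10.34, however, above the 8.71 to 9.95 of the mesenchymal lines, whereas the other epithelial lines lay between 5.54 and 7.63. ASC-5193 stood apart within the mesenchymal class, with an epithelial marker mean of 3.03 against 4.61 to 5.47 in the other 5 lines. For some of the genes whose values rest on these lines, the difference is also given without them. The fits without ASC-5193 alone were chosen after the data had been seen.

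**Figure D1:**
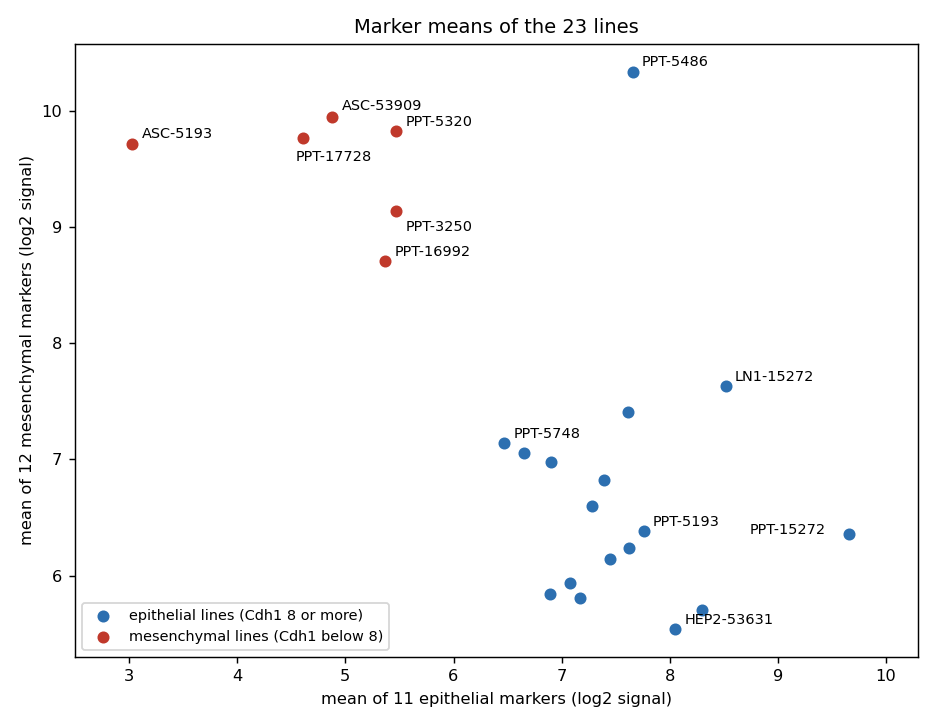
Each point is a line, with the mean log2 signal of 11 epithelial markers without Cdh1 on the x axis and of 12 mesenchymal markers on the y axis. The 6 mesenchymal lines (red) lie left of the 17 epithelial lines (blue), ASC-5193 lies farthest left at 3.03, and PPT-5486 lies above all other lines at 10.34.

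The cultures were also examined for genes of other cell types. The mean over 22 fibroblast and pericyte markers was 5.05 to 6.98 in the mesenchymal lines, 3.26 to 5.07 in 16 epithelial lines and 7.76 in PPT-5486. Of these markers 9 were higher and 1 was lower in the mesenchymal lines (median 1.90), among them Col3a1, Dcn and Pdgfrb, which are described below. The fibroblast protease gene Fap did not pass (log2 difference 0.03, 95% interval -1.15 to 1.21), with means of 2.72 and 2.58 near the lowest signals. Rgs5, a pericyte gene, was likewise dim, with means of 2.45 and 2.5. Many of the listed genes are also genes of EMT, and the part of fibroblasts in the results was not tested. In bulk RNA, fewer cells of a type and less RNA per cell cannot be told apart. Immune markers averaged 3.38 to 4.04 in the mesenchymal and 3.74 to 4.22 in the epithelial lines, and endothelial markers 3.27 to 3.43 and 3.10 to 3.44. Ptprc (CD45), which defines leukocytes, had means of 2.06 and 2.04, and the endothelial gene Pecam1 means of 1.97 and 2.10.

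Over the whole array 5044 of 45036 probe sets differed between the classes at an adjusted p under 0.05. Of these, 2548 (5.66% of those tested) were higher and 2496 (5.54%) lower in the mesenchymal lines. At the unadjusted threshold of 0.05, 11085 probe sets passed. The median difference of all probe sets was -0.0052. Centring each array on its median moved this median to 0.073 and the split of the calls from 50.5% to 66.0% higher, with 3441 higher and 1769 lower, so small differences depend on the scaling. Counted as genes, with the brightest probe set standing for each, 1346 of 18192 (7.4%) were higher and 1216 (6.68%) lower. Among the called genes 559 were higher and 632 lower by more than 1 on the log2 scale, and 102 were higher and 155 lower by more than 3. Signals of the classes did not overlap for 103 genes that were higher (0.566%) and 197 that were lower (1.08%). Differences are estimates of a model with the mouse as a random block and can deviate slightly from those of the class means. Since no source says that each line was cultured more than once, the p-values measure the spread between lines.

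Genes of all 3 kinds of cell-cell contact were among those called lower in the mesenchymal lines. Of 25 measured tight junction genes 13 were lower and 0 higher, with a list median of -1.86, next to a median of 0.006 over all genes. Of 12 genes of desmosomes and cornified contacts 6 were lower and 0 higher (median -0.79). Of 18 cadherin and adherens junction genes 4 were lower and 1 higher (median -0.35), Cdh1 not counted. Without PPT-5486 2 cadherin genes were higher, and 1 tight junction gene was higher without PPT-5486, without PPT-17728 or without ASC-5193 and PPT-5193 together. These and all other counts are of genes with an adjusted p under 0.05 over all probe sets. By the same threshold 7.4% of all genes were higher and 6.68% lower, the shares to set beside each count.

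Desmoplakin (Dsp), which links desmosomes to keratin filaments, had the largest difference among the listed junction genes. Its signal was 1.68 in PPT-3250, 2.32 in ASC-5193, 3.24 in PPT-5320, 2.59 in PPT-16992, 1.59 in ASC-53909 and 1.91 in PPT-17728. The epithelial lines lay between 8.24 and 10.54 with a median of 9.53. All 6 mesenchymal lines were thus near the lowest signals of the arrays and all epithelial lines far above them, with a 157-fold lower fitted signal (log2 difference -7.30, standard error 0.29, adjusted p = 3.06e-14). Dsg2, the desmosomal cadherin of simple epithelia, lay between 2.09 and 3.51 in the mesenchymal lines. It lay between 6.82 and 9.81 in all epithelial lines but B-152727, where it was 4.18. The classes did not overlap (log2 difference -5.33, standard error 0.55, adjusted p = 4e-07). The plakin gene Ppl was lower by a smaller amount (log2 difference -2.0, adjusted p = 0.000489), and ASC-53909 (6.64) and PPT-16992 (6.25) lay among the lowest epithelial lines.

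Perp, a desmosomal protein and p53 target, divided the mesenchymal lines. It was 1.86 in ASC-5193, 2.10 in ASC-53909, 4.13 in PPT-17728 and 5.62 in PPT-3250, but 8.52 in PPT-16992 and 9.01 in PPT-5320. The last 2 lay within the epithelial range of 7.87 to 11.32. Perp differed by -4.57 on the log2 scale (standard error 0.77, adjusted p = 0.000305). It ranged from -5.32 without PPT-5320 to -3.88 without ASC-5193 and PPT-5193 together, and was -5.22 without PPT-16992 and -3.97 without ASC-53909. In the PPT lines alone it was -2.62 and did not pass (adjusted p = 0.132).

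Of the tight junction genes, Cldn2, a claudin that forms cation pores, was 2.46 to 2.76 in 4 mesenchymal lines, 4.50 in PPT-5320 and 5.02 in PPT-17728. The epithelial lines lay between 7.82 and 11.66 with a median of 10.28. The classes did not overlap, and the fitted signal was 114-fold lower (log2 difference -6.83, standard error 0.51, adjusted p = 2.11e-09). Lsr, which recruits tricellulin to the corners where 3 cells meet, lay between 4.46 and 5.13 in the mesenchymal and between 7.90 and 9.22 in the epithelial lines. Its difference of -3.73 had a standard error of only 0.17 (adjusted p = 3.51e-13), as the lines of each class lay close together. The scaffold gene Cgn (cingulin) differed by -4.02 and the polarity gene Crb3 by -2.02, both without overlap. Not all claudins followed: Cldn4 (log2 difference -2.16, 95% interval -3.90 to -0.42, adjusted p = 0.104) and Cldn7 (-2.89, -4.99 to -0.79, adjusted p = 0.0684) did not pass, and their epithelial SDs were 2.08 and 2.55.

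Among adherens junction genes, Cdh17, an intestinal cadherin, lay between 1.31 and 3.28 in the mesenchymal and 4.78 and 10.13 in the epithelial lines (log2 difference -5.85, standard error 0.66, adjusted p = 1.53e-06). The nectin gene Nectin2, an immunoglobulin-like adhesion molecule, differed by -1.80 (adjusted p = 3.32e-05). Beta-catenin (Ctnnb1), which binds the tail of cadherins, stayed bright in every line, 11.64 to 12.23 in the mesenchymal and 12.17 to 12.77 in the epithelial lines. Its difference was nevertheless called (log2 difference -0.51, standard error 0.10, adjusted p = 0.00203). N-cadherin (Cdh2), the cadherin of mesenchymal and neural cells, was the exception in direction. It was 9.09 in PPT-17728, 9.72 in PPT-3250, 10.08 in PPT-16992, 10.09 in PPT-5320, 10.78 in ASC-53909 and 11.13 in ASC-5193, against 6.68 to 9.74 in the epithelial lines. PPT-5486 and LN1-15272 were the highest and the lowest epithelial line, and the classes overlapped. Cdh2 differed by 1.48 (standard error 0.36, adjusted p = 0.00951), and in the PPT lines alone by 0.86, which did not pass (adjusted p = 0.318). Most epithelial lines thus expressed N-cadherin well above the median of all values, beside E-cadherin. Cdh11, another mesenchymal cadherin, did not pass (2.13, 95% interval -0.26 to 4.51, adjusted p = 0.266).

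Stretches upstream of the transcription start are shown for 5 genes that were lower in the mesenchymal lines, since they hold the E-box to which Snail and Zeb factors are known to bind. The sequences are those of RefSeq for the mouse genome build GRCm38.p6, read 5′ to 3′ on the strand of the gene and ending 1 base before its start. Capitals mark CAGGTG or its reverse complement CACCTG. Crb3 lies at chr17:57062081-57062200 on the plus strand, Krt7, a keratin of ducts, at chr15:101412283-101412402 (plus) and Tfcp2l1, an epithelial transcription factor, at chr1:118627825-118627944 (plus). Lsr lies at chr7:30973470-30973719 on the minus strand, and Muc1, a transmembrane mucin, at chr3:89228806-89229055 on the plus strand.
Crb3: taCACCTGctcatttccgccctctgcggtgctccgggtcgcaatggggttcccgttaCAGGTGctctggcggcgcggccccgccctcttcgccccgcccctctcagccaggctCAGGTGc
Lsr: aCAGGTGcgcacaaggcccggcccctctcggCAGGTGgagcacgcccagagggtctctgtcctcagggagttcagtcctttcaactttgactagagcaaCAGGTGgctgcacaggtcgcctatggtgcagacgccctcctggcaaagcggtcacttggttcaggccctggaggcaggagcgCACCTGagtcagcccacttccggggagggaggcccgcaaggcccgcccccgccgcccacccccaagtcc
Krt7: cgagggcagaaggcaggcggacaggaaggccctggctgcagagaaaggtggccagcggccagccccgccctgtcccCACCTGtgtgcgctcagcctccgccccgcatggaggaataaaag
Muc1: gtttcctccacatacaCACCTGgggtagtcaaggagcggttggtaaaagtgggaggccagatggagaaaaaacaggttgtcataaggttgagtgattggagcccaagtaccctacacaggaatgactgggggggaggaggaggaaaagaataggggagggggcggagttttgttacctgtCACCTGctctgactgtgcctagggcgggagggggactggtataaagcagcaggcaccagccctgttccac
Tfcp2l1: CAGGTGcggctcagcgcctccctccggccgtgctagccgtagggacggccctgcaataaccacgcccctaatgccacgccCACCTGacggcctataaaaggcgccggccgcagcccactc
The stretch of Lsr holds 4 matches, that of Crb3 3, those of Muc1 and Tfcp2l1 2 each and that of Krt7 1. Within 250 bases upstream of the start, searched on both strands, the motif was present at 2442 of 14452 tested genes with a sequence (16.9%), and at 4620 of all 27025 promoter windows (17.1%). It was present at 249 of 956 genes that were lower in the mesenchymal lines (26%) and at 130 of 1055 that were higher (12.3%). For differences of more than 3 on the log2 scale the shares were 33.9% of 115 and 9.59% of 73 genes. The median GC content of these windows was 57.6% for all tested genes, 59.6% for the lower and 61.6% for the higher genes. Genes that were higher and hold the motif included Snai1, Col8a1, Col16a1, Itgb8 and Adam19. The shares are descriptions of the sequences and were not tested, nor was binding of any factor to these stretches.

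Genes of the epithelial surface and of epithelial gene regulation were also among those called lower. Of 34 measured genes of the epithelial surface, polarity and proteases 15 were lower and 0 higher (list median -1.34). Of the 34 measured genes 10 were lower without overlap, next to 1.08% of all genes. Of 17 splicing and identity regulators 9 were lower and 0 higher (median -0.69).

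The zinc importer gene Slc39a4, named for the size of its difference and not a member of these lists, lay between 2.52 and 3.48 in the mesenchymal and between 8.22 and 10.20 in the epithelial lines, a 72.7-fold lower fitted signal (log2 difference -6.18, standard error 0.27, adjusted p = 1.69e-13). Mpzl2, an adhesion protein of epithelia, lay between 1.72 and 3.47 against 6.62 to 10.42 (log2 difference -6.65, adjusted p = 2.72e-11). The classes were far apart for both genes, and PPT-5748 was the lowest epithelial line for Mpzl2. PPT-5748 was also lowest for Mal2, which serves transport to the apical membrane (0.93 to 1.99 against 5.61 to 8.63; log2 difference -5.82), and for Muc1. Muc1 was 5.01 in PPT-3250 and 3.20 to 4.09 in the other mesenchymal lines, below all epithelial lines at 6.96 to 11.21 (log2 difference -5.74, adjusted p = 3.26e-09). Ladinin (Lad1), a basement membrane filament protein, stayed higher in PPT-16992 with 7.61 than in the other mesenchymal lines with 3.43 to 5.44. The epithelial lines lay between 8.37 and 10.48 (log2 difference -4.74, adjusted p = 3.32e-08). Ripk4, a kinase of epithelial differentiation, was 5.73 in PPT-3250 and 1.73 to 3.11 in the other mesenchymal lines, against 8.61 to 10.32 (log2 difference -6.53, adjusted p = 2.21e-11).

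Of the regulators, the RNA-binding protein gene Rbm47 was 2.89 in ASC-5193 and 3.03 in ASC-53909, but 5.27 to 6.48 in the 4 mesenchymal PPT lines. The epithelial lines lay above these, between 7.66 and 9.41 (log2 difference -3.70, standard error 0.42, adjusted p = 1.84e-06). The ETS factor gene Ehf lay between 1.89 and 2.89 in the mesenchymal lines. It ranged widely in the epithelial lines, from 2.87 in B-6051 to 9.08 in HEP2-53631, so that PPT-16992 overlapped with B-6051 (log2 difference -4.33, adjusted p = 0.000103). Both other probe sets of Ehf above the lowest signals were called as well, with differences of -2.89 (adjusted p = 0.00127) and -1.70 (adjusted p = 0.0407), and a probe set dim in both classes differed by 0.03. Tfcp2l1 differed by -2.60 (adjusted p = 5.63e-05), with PPT-17728 at 4.04 and the lowest epithelial line, PUL-15272, at 4.03. Esrp1, the paralogue of Esrp2, did not pass (log2 difference -0.69, 95% interval -1.90 to 0.53, adjusted p = 0.521), and its means of 2.22 and 3.03 were near the lowest signals in both classes. Grhl2, a grainyhead factor of epithelia, did not pass either (-0.24, -0.43 to -0.05, adjusted p = 0.0906).

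**Figure D2:**
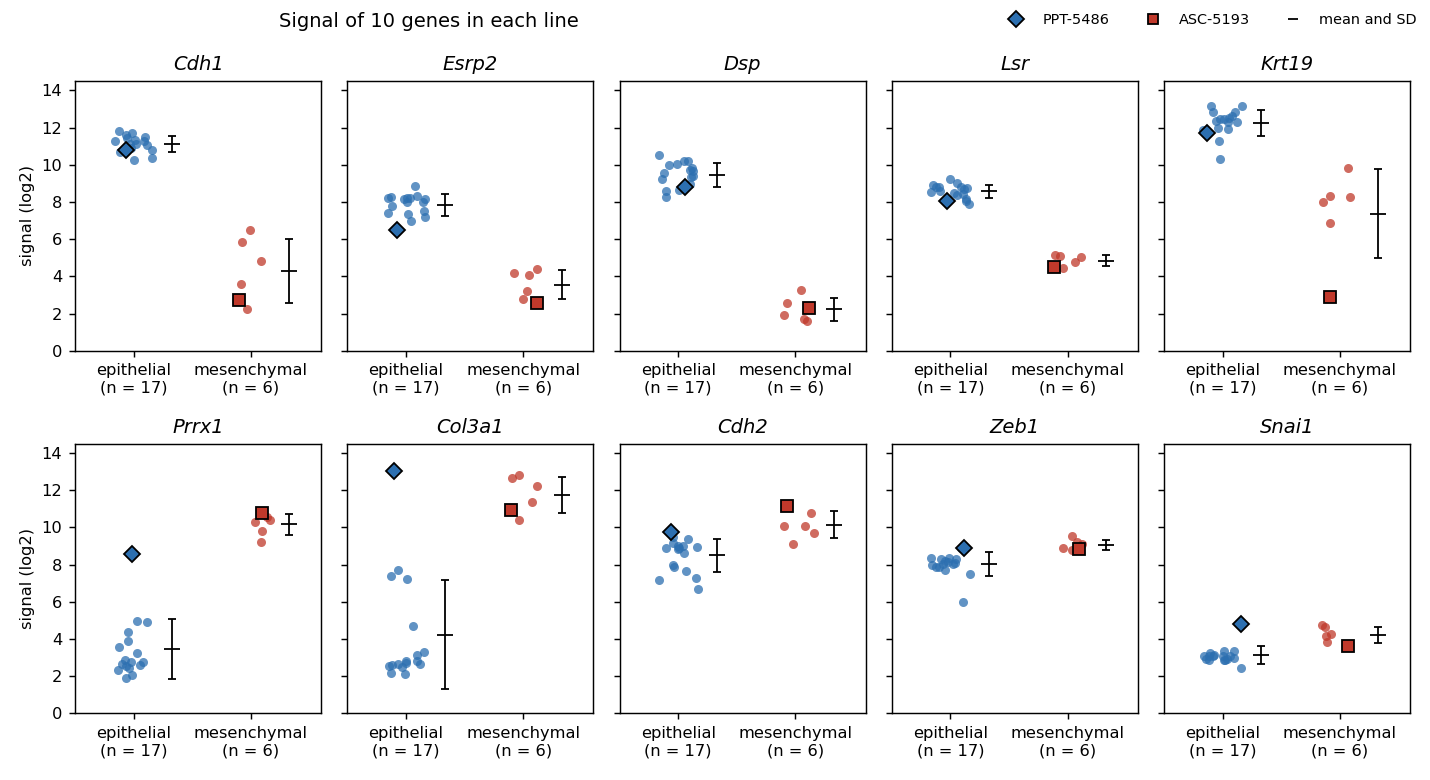
Log2 signal (y axis) of 10 genes in each of the 17 epithelial (blue) and 6 mesenchymal (red) lines (x axis), with mean and SD beside the points. The classes are apart for Cdh1, by which they were set, and for Esrp2, Dsp, Lsr, Krt19 and Prrx1, and PPT-5486 (diamond) lies at or above the mesenchymal lines for Col3a1 and Snai1.

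Several keratins, the intermediate filaments of epithelia, were called lower, and the mesenchymal lines differed among themselves. Of 15 measured keratin genes 6 were lower and 0 higher (median -0.63). With 1 mean value per mouse 3 keratin genes were lower.

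Krt7 was 2.09 in ASC-5193, 2.40 in PPT-16992, 2.45 in ASC-53909, 3.03 in PPT-3250, 5.18 in PPT-17728 and 6.63 in PPT-5320. Most epithelial lines were bright, with a median of 12.22, but PPT-5748 at 4.46 and the next lowest line at 6.25 overlapped with the mesenchymal lines. The log2 difference was -7.26 (standard error 1.04, adjusted p = 4.51e-05), and it was -7.85 without PPT-5320 and -6.55 over means per mouse. Krt19, the second ductal keratin, was 2.87 in ASC-5193, 6.89 to 8.32 in PPT-3250, PPT-16992, PPT-5320 and PPT-17728 and 9.83 in ASC-53909. All lay below the epithelial lines at 10.29 to 13.18 (log2 difference -4.92, standard error 0.62, adjusted p = 7.86e-06). Without ASC-5193 the difference was -3.90 (adjusted p = 5.03e-07).

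Krt8 and Krt18, the keratin pair of simple epithelia, divided the mesenchymal lines. Krt8 was 12.15 to 12.81 in PPT-3250, PPT-5320, PPT-16992 and ASC-53909, 7.53 in PPT-17728 and 3.44 in ASC-5193. The epithelial lines lay between 12.26 and 13.75, so that the 4 bright lines were at the lower edge of their range. The log2 difference was -3.19 (standard error 0.88, adjusted p = 0.0196). It lost the call without ASC-5193 and PPT-5193 together (-1.68, adjusted p = 0.0513), without PPT-17728 (-2.70, adjusted p = 0.0579) and without mouse 53631 (-3.22, adjusted p = 0.0512), and it kept it without ASC-5193 alone (-1.69, adjusted p = 0.0403). Over means per mouse Krt8 did not pass either (-2.99, adjusted p = 0.133). Krt18 was 12.02 to 12.80 in PPT-3250, PPT-5320 and PPT-16992, 7.43 in PPT-17728, 6.01 in ASC-53909 and 2.46 in ASC-5193, against 12.36 to 13.74. In ASC-53909 the partners thus had unequal signals. The log2 difference of Krt18 was -4.43 (standard error 0.97, adjusted p = 0.00355). It was -2.99 without ASC-5193, between -5.21 and -5.06 without any single one of PPT-3250, PPT-5320 and PPT-16992, and did not pass over means per mouse (-4.26, adjusted p = 0.0532). In the PPT lines alone neither partner passed, with -1.92 for Krt18 (adjusted p = 0.232) and -1.77 for Krt8 (adjusted p = 0.279).

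Krt20, a keratin of gastrointestinal epithelium, was 9.81 in PPT-3250 and 5.86 in ASC-5193 but 2.47 to 3.03 in the other 4 mesenchymal lines. PPT-3250 was thus above the epithelial median of 9.03. The log2 difference was -3.96 (standard error 1.05, adjusted p = 0.0153), -5.00 without PPT-3250, and no longer called without mouse 53631 (-3.64, adjusted p = 0.0560) or over means per mouse (adjusted p = 0.112). Krt23 was 3.15 to 3.70 in all mesenchymal lines and 3.61 to 10.12 in the epithelial lines, with PPT-15272 lowest (log2 difference -4.67, adjusted p = 0.000534).

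Of 22 measured EMT transcription factor genes 8 were higher and 1 was lower in the mesenchymal lines, with a median of 0.83. The count of higher genes was 6 without ASC-5193 and 9 without PPT-5486. Prrx1 had the largest difference of the list. Of the Snail, Zeb and Twist genes, Snai1, Zeb1 and Twist2 were higher and Snai3 was lower, while Snai2, Twist1 and the brightest probe set of Zeb2 did not pass.

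Tcf4, the gene of the E2-2 basic helix-loop-helix factor, lay between 9.40 and 10.55 in the mesenchymal and between 6.36 and 9.16 in the epithelial lines (log2 difference 2.41, standard error 0.28, adjusted p = 2.96e-06). The classes did not overlap, with PPT-5486 the highest epithelial line. The forkhead gene Foxc1 differed by 2.52 (6.2 to 7.17 against 2.27 to 6.29; adjusted p = 0.00155). Foxc2 ranged from 3.55 in PPT-3250 to 9.13 in PPT-17728 and differed by 2.78 (adjusted p = 0.00905), by 3.37 without PPT-3250, and over means per mouse it did not pass (adjusted p = 0.0671).

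Snai1, the founding Snail factor, was dim throughout. It was 3.63 in ASC-5193, 3.84 in ASC-53909, 4.18 in PPT-3250, 4.28 in PPT-16992, 4.67 in PPT-17728 and 4.73 in PPT-5320, against 2.44 to 3.37 in 16 epithelial lines and 4.81 in PPT-5486. Only PPT-5486 overlapped with the mesenchymal lines (log2 difference 1.07, standard error 0.22, adjusted p = 0.00227). Zeb1 was bright in both classes, 8.80 to 9.52 in the mesenchymal and 6.0 to 8.92 in the epithelial lines. PPT-15272 was lowest, the next line lay at 7.51, and PPT-5486 was highest. The log2 difference of 0.95 (standard error 0.26, adjusted p = 0.0204) was lost without ASC-53909 (0.86, adjusted p = 0.0612), without mouse 53631 (adjusted p = 0.0536) and without the lines nearest the threshold (adjusted p = 0.0619). A second probe set of Zeb1 was also called (0.57, adjusted p = 0.0258), and at the other 2, which were dim in both classes, differences of -0.01 and -0.05 were measured.

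Twist2 lay between 5.72 and 10.42 in the mesenchymal lines, with ASC-53909 lowest and ASC-5193 highest, and between 3.09 and 8.70 in the epithelial lines. Its log2 difference of 2.44 (adjusted p = 0.0373) was lost in 8 of the 14 fits that left out the lines of a mouse, namely ASC-5193 with PPT-5193, PPT-3250, PPT-5320, PPT-16992, HEP-5123 with B-5123, PPT-6051 with B-6051, PPT-17728, and the lines of mouse 53631. Fosl1, an AP-1 subunit, differed by 0.80 (adjusted p = 0.0246), and lost the call without ASC-5193 and PPT-5193, PPT-16992 or mouse 15272 (adjusted p of 0.0535, 0.0787 and 0.0529). A second probe set of Fosl1 did not pass (0.69, adjusted p = 0.0838). Snai3 was lower by 0.90 (log2 difference -0.90, standard error 0.17, adjusted p = 0.000943). Twist1 (1.86, adjusted p = 0.0811), Prrx2 (1.40, adjusted p = 0.146) and Snai2 (0.86, adjusted p = 0.227) did not pass. Snai2 was 10.76 in ASC-5193, above the epithelial range of 6.13 to 10.36, and 8.47 to 9.30 in the other mesenchymal lines, within it. Zeb2 was close to the threshold at its brightest probe set (1.51, standard error 0.51, adjusted p = 0.0602), passed without PPT-5486 (1.74, adjusted p = 0.00806), and was called at 3 others of its probe sets, with differences between 0.49 and 2.86.

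Many collagen and matrix genes were called higher in the mesenchymal lines, and PPT-5486 was repeatedly the highest epithelial line. Of 22 measured collagen genes 9 were higher and 0 lower (median 1.84). Of 38 matrix glycoprotein and proteoglycan genes 14 were higher and 1 was lower (median 1.48), and of 26 genes of the cytoskeleton and surface 8 were higher and 0 lower (median 0.93). Without PPT-5486, the only line of its mouse, these counts of higher genes were 15, 18 and 12. The collagen count was 6 without ASC-5193, 5 without mouse 53631 and 4 over means per mouse, and the cytoskeleton count was 3 to 5 without any single one of PPT-5320, ASC-53909, PPT-3107, PPT-17728, the lines PPT-6051 and B-6051, those of mouse 15272 and those of mouse 53631, and 3 over means per mouse. The 9 higher fibroblast and pericyte markers included 4 of these collagen and matrix genes, and 14 passed without PPT-5486. The 1 lower marker, Clec3b, was not called without PPT-5320, PPT-16992, ASC-53909, mouse 15272 or mouse 53631.

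Col3a1, a fibrillar collagen of stroma, was 10.40 in PPT-16992, 10.94 in ASC-5193, 11.38 in PPT-3250, 12.25 in PPT-5320, 12.65 in PPT-17728 and 12.80 in ASC-53909. The epithelial median was 2.81 and the second highest epithelial line lay at 7.72, but PPT-5486 had the highest signal of all lines with 13.01. Col3a1 differed by 7.34 (standard error 1.22, adjusted p = 0.000262), and 8.01 without PPT-5486 (adjusted p = 8.55e-07). Col1a2, a chain of type I collagen, was 4.63 in ASC-5193 and 11.71 to 13.27 in the other mesenchymal lines. ASC-5193 was thus close to the epithelial median of 4.15, whereas PPT-5486 lay at 13.15. The log2 difference was 5.42 (standard error 1.28, adjusted p = 0.00673), 6.79 without ASC-5193 and 6.02 without PPT-5486. Col1a1, the partner chain, did not pass (2.71, 95% interval 0.47 to 4.96, adjusted p = 0.114). Col8a1, a network collagen, differed by 4.59 (8.08 to 11.73 against 1.28 to 9.84; adjusted p = 0.00891) and by 5.26 without ASC-5193 and PPT-5193 together, and Col16a1 by 1.80 (adjusted p = 1.45e-05).

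Of the small leucine-rich proteoglycans, decorin (Dcn) was 6.66 in PPT-16992, 7.01 in PPT-17728, 8.52 in PPT-3250, 8.61 in PPT-5320, 9.83 in ASC-53909 and 11.53 in ASC-5193. In the epithelial lines it lay between 2.82 and 4.98, except for PPT-5486 with 7.16. Decorin differed by 5.14 (standard error 0.59, adjusted p = 2.28e-06), and 4.48 without ASC-5193. Biglycan (Bgn) was 6.88 in PPT-16992 and 11.19 to 13.04 in the other mesenchymal lines, against 3.26 to 8.79 in 16 epithelial lines and 12.29 in PPT-5486. Its log2 difference was 5.93 (standard error 1.08, adjusted p = 0.000710), and 6.82 without PPT-16992. The large proteoglycan versican (Vcan) differed by 4.17 (adjusted p = 0.000265) and Fbln5, a fibulin of elastic fibres, by 4.56 (adjusted p = 0.000128). Syndecan-1 (Sdc1), a heparan sulfate proteoglycan of epithelia, was the lower member of its list (log2 difference -0.59, adjusted p = 0.00276). Fibronectin (Fn1) did not pass (1.96, 95% interval 0.41 to 3.52, adjusted p = 0.0978).

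Among cytoskeletal genes S100a4, a calcium-binding protein of motile cells, lay between 13.01 and 13.62 in the mesenchymal and between 7.97 and 12.94 in the epithelial lines. It was free of overlap, with a log2 difference of 2.5 (standard error 0.59, adjusted p = 0.00715). Smooth muscle actin (Acta2) was 10.01 to 13.14 against 4.81 to 12.57, again with PPT-5486 the highest epithelial line. Its difference of 3.53 (adjusted p = 0.0207) lost the call without ASC-53909 (adjusted p = 0.0529), without mouse 53631 (adjusted p = 0.0656) and over means per mouse (adjusted p = 0.0544). The connexin gene Gja1 differed by 1.17 (adjusted p = 0.00667). Cspg4 differed by 1.19 (adjusted p = 0.0144), and lost the call without ASC-53909 (adjusted p = 0.0569). Vimentin (Vim), the intermediate filament that usually marks mesenchymal cells, was bright in both classes, 13.19 ± 0.30 (SD, n = 6) and 12.62 ± 0.54 (SD, n = 17), and did not pass (0.55, 95% interval 0.06 to 1.03, adjusted p = 0.141).

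Of 28 matrix proteases, inhibitors and crosslinking enzymes 9 were higher and 3 lower (median 0.98), with 1 lower without ASC-5193 and PPT-5193, without PPT-16992, without ASC-53909 and over means per mouse. Loxl3, a lysyl oxidase that crosslinks collagen, lay between 8.36 and 10.78 in the mesenchymal lines. It lay between 3.47 and 5.63 in 16 epithelial lines and at 7.83 in PPT-5486, so that the classes did not overlap (log2 difference 4.59, standard error 0.43, adjusted p = 1.17e-07). The metalloproteinase inhibitor gene Timp1 was 10.97 in ASC-5193 and 12.56 to 12.82 in the other mesenchymal lines, against 8.48 to 11.43 (log2 difference 2.77, adjusted p = 1.83e-05). Mmp2, a gelatinase, ranged from 4.26 in PPT-16992 to 9.73 in PPT-3250 against 2.98 to 7.59 (log2 difference 3.31, adjusted p = 0.00103), and the metalloproteinase-disintegrin gene Adam19 differed by 3.77 (adjusted p = 0.000287), and by 4.47 without ASC-5193. The collagenase gene Mmp13 ran the other way. It lay between 4.18 and 11.84 in the epithelial lines and between 2.21 and 3.70 in 5 mesenchymal lines, all below them, but was 7.36 in ASC-5193, near the epithelial median of 7.32. The log2 difference was -3.99 (standard error 0.92, adjusted p = 0.00577), and -4.81 without ASC-5193. Loxl4 was lower by a small amount (-0.90, adjusted p = 0.0349), and lost the call without ASC-5193 and PPT-5193, PPT-3250, PPT-16992, ASC-53909 or mouse 53631, with adjusted p of up to 0.0952.

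Of 25 integrin and laminin genes 8 were higher and 6 lower (median 0.34). The collagen receptor gene Itga2 lay between 3.34 and 4.01 in the mesenchymal and between 5.66 and 8.12 in the epithelial lines (log2 difference -2.93, standard error 0.27, adjusted p = 8.01e-08). Lama5, the laminin chain of epithelial basement membranes, differed by -1.51 (adjusted p = 2.07e-05), without overlap. Itgb8, which takes part in activating latent TGF-beta, was 5.15 to 7.43 in the mesenchymal lines and 1.34 to 5.45 in the epithelial lines, with a median of 1.69 (log2 difference 4.05, standard error 0.55, adjusted p = 2.09e-05). Lama4, a laminin chain of mesenchymal and vascular basement membranes, was 8.59 in ASC-53909 and 4.83 to 6.07 in the other 5, against 2.69 to 5.47 (log2 difference 2.86, adjusted p = 2.94e-05).

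The TGF-beta and BMP pathway can drive EMT. Of 34 measured genes 6 were higher and 3 lower (median 0.18), next to 7.4% higher and 6.68% lower over all genes. Gremlin 1 (Grem1), a secreted BMP antagonist, lay between 10.04 and 11.54 in the mesenchymal lines and between 3.38 and 9.62 in the epithelial lines, with PPT-5486 highest. The classes did not overlap (log2 difference 5.31, standard error 0.76, adjusted p = 4.4e-05). The co-receptor gene Tgfbr3 (betaglycan) lay between 7.66 and 9.66 against 2.91 to 6.68, with B-152727 and PPT-5486 the highest epithelial lines (log2 difference 4.46, standard error 0.48, adjusted p = 7.2e-07). The BMP target gene Id3 was also free of overlap (10.24 to 11.36 against 5.74 to 9.56; log2 difference 2.65, adjusted p = 0.000965), whereas its relative Id2 was lower (-1.04, adjusted p = 0.0306). The follistatin-like gene Fstl1 differed by 4.46 (adjusted p = 0.00730), and by 3.82 without mouse 53631. The ligand gene Tgfb1 (0.19, 95% interval -0.34 to 0.71, adjusted p = 0.709) and the type II receptor gene Tgfbr2 (-0.24, -0.74 to 0.26, adjusted p = 0.598) did not pass. The 3 lower calls were weak: Id2 lost its call without ASC-5193 and PPT-5193, PPT-3250, PPT-5320, PPT-16992 or mouse 15272, and the activin receptor gene Acvr1b (-0.97, adjusted p = 0.0344) without PPT-3250, ASC-53909, PPT-17728 or the pair HEP-5123 and B-5123. The count of lower genes was 0 without PPT-3250 and 1 without ASC-53909, without ASC-5193 and PPT-5193, or without HEP-5123 and B-5123.

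Of 12 EGF receptor family and ligand genes 2 were lower and 1 was higher (median -0.04). The ligand gene Tgfa was 3.52 in ASC-53909, 4.09 in PPT-17728, 4.33 in ASC-5193, 4.57 in PPT-3250, 5.92 in PPT-5320 and 6.16 in PPT-16992. All epithelial lines were higher, at 7.38 to 9.32 (log2 difference -3.64, standard error 0.34, adjusted p = 1.13e-07). The receptor gene Erbb2 differed by -0.77 (5.74 to 6.54 against 6.58 to 7.37; adjusted p = 0.000297), also without overlap, and Egfr itself did not pass (-0.92, 95% interval -2.21 to 0.37, adjusted p = 0.391). The feedback regulator gene Lrig1 was called at 2 probe sets (0.86, adjusted p = 0.0373, and 0.97, adjusted p = 0.0170), and a dim probe set differed by -0.09. The call of the first was lost in 7 of these fits, those without ASC-5193 and PPT-5193, PPT-5320, PPT-16992, PPT-3107, PPT-5671, PPT-6051 and B-6051, or mouse 53631.

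Of 36 other receptor tyrosine kinase and ligand genes 7 were higher and 6 lower (median 0.26), with 3 lower without mouse 53631. The PDGF receptor gene Pdgfrb, a receptor of fibroblasts and pericytes, lay between 7.30 and 9.85 in the mesenchymal lines and between 1.44 and 6.52 in 16 epithelial lines. PPT-5486 exceeded all lines with 10.59 (log2 difference 5.27, standard error 1.04, adjusted p = 0.00149). Fgfr1, an FGF receptor of mesenchyme, lay between 8.89 and 10.53 against 3.25 to 8.90, with PPT-5486 and PPT-15272 the highest epithelial lines (log2 difference 4.86, standard error 0.73, adjusted p = 8.82e-05). Fgfr4, an FGF receptor of endodermal tissue, ran the other way (3.0 to 3.88 against 4.04 to 8.45; log2 difference -2.72, adjusted p = 0.00157). The collagen receptor gene Ddr2 was higher (2.41, adjusted p = 1.17e-05) and the ephrin receptor gene Epha4 lower (-3.30, adjusted p = 3.16e-06), with PPT-16992 the nearest mesenchymal line in both, at 6.31 and 6.78. Of 33 Wnt pathway genes 5 were higher and 4 lower (median 0.15), with 3 higher without mouse 53631 and 2 over means per mouse. Over all genes 7.4% were higher and 6.68% lower. The secreted Wnt regulator gene Dkk2 ranged from 4.72 in ASC-53909 to 10.71 in PPT-16992 against an epithelial median of 2.84 and 8.29 in PPT-5486 (log2 difference 4.23, adjusted p = 0.000615), and differed by 3.63 without PPT-16992. The ligand gene Wnt7a (-3.85, adjusted p = 0.000562) and Rnf43, which removes Wnt receptors from the surface (-2.38, adjusted p = 0.000656), were lower. Further probe sets of Wnt7a differed by 0.12 and 0.15 and of Acvr1b by 0.15, all without a call.

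The transcription factors of pancreas and foregut and the gastric-like genes of the classical PDAC subtype were mostly lower or did not pass. Of 28 measured factor genes 10 were lower and 1 was higher (median -0.21), and of 28 gastric-like genes 9 were lower and 0 higher (median -0.80).

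Hnf4a, a nuclear receptor of endodermal epithelium, was 3.14 in PPT-16992, 3.40 in ASC-5193, 3.83 in PPT-3250, 4.32 in ASC-53909, 4.56 in PPT-5320 and 4.67 in PPT-17728. Of the epithelial lines 16 lay between 8.84 and 10.73, and PPT-15272 lay among the mesenchymal lines with 4.64. Hnf4a differed by -5.78 (standard error 0.60, adjusted p = 4.29e-07). PPT-15272 was nevertheless the line with the highest epithelial marker mean, 9.66. Gata6, which defines the classical subtype, was 3.43 to 4.63 in 4 mesenchymal lines, but 7.14 in PPT-17728 and 8.16 in PPT-16992, within the epithelial range of 5.61 to 9.12 (log2 difference -3.18, standard error 0.56, adjusted p = 0.000529). PPT-15272 was again the lowest epithelial line. Foxa2, a pioneer factor of endoderm, was 3.11 in ASC-5193 and 6.05 to 8.47 in the others (log2 difference -3.26, adjusted p = 9.61e-05; -2.49 without ASC-5193). The Notch target gene Hes1 differed by -0.89 (adjusted p = 0.000109). Pdx1, the pancreatic homeobox factor, did not pass (-2.04, 95% interval -3.62 to -0.45, adjusted p = 0.0906), with an SD of 3.25 over the mesenchymal lines.

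Sox2, a stem cell factor of foregut, was the higher member of the list. It was 10.79 in PPT-3250, 10.73 in ASC-5193, 9.92 in PPT-16992, 7.55 in PPT-17728, 6.0 in ASC-53909 and 5.23 in PPT-5320. The epithelial lines ranged from 1.28 to 7.98 with a median of 2.60, and the 5 lines above 6 were PPT-6051, B-6051, PPT-15272, LN1-15272 and B-152727. Sox2 differed by 4.97 (standard error 1.08, adjusted p = 0.00339), 4.30 without ASC-5193 and PPT-5193, 5.6 without PPT-5320 and 5.63 without mouse 15272. Among gastric-like genes, the tetraspanin gene Tspan8 was free of overlap (5.39 to 8.85 against 9.85 to 12.64; log2 difference -5.02, standard error 0.43, adjusted p = 2.84e-08), as was the iron exporter gene Slc40a1 (-3.79, adjusted p = 4.58e-08). The galectin gene Lgals4 was 5.82 in PPT-5320 and 3.32 to 4.13 in the other mesenchymal lines (log2 difference -6.79, adjusted p = 3.14e-05). The lowest epithelial line was PPT-15272 with 5.46, which also had the lowest epithelial signal of Ctse (cathepsin E), 6.0 (log2 difference -6.02, adjusted p = 6.16e-05). A further probe set of Ctse differed by 0.30 (adjusted p = 0.848).

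Genes outside the lists that were named for their large difference and were higher in the mesenchymal lines included the sialomucin gene Cd34, a marker of progenitor and endothelial cells, the protocadherin gene Pcdh19 and the zinc finger gene Bnc2. Cd34 was 8.71 in ASC-53909, 8.77 in PPT-17728, 9.56 in PPT-5320, 9.66 in PPT-3250, 11.36 in PPT-16992 and 12.26 in ASC-5193. The epithelial lines had a median of 2.97 and reached 7.82 in B-152727 (log2 difference 6.60, standard error 0.69, adjusted p = 5.81e-07). The classes did not overlap, nor did they for Pcdh19 (9.01 to 9.99 against 1.81 to 7.85; log2 difference 6.42, adjusted p = 3.8e-07). Bnc2 was tight in the mesenchymal lines, between 8.03 and 8.66, and at most 3.12 in 16 epithelial lines, with 7.69 in PPT-5486 (log2 difference 5.42, standard error 0.52, adjusted p = 1.25e-07). In the other direction stood Anxa13, an annexin of polarised epithelia (2.04 to 3.87 against 4.01 to 12.19; log2 difference -7.62, adjusted p = 3.81e-07), and the retinol carrier gene Rbp4 (-6.95, adjusted p = 1.06e-05). Cxcl5, a chemokine that attracts neutrophils, was 4.33 in PPT-17728 and 1.58 to 2.92 in the others, against 5.00 to 11.74 (log2 difference -6.71, adjusted p = 5.15e-06). For Anxa13, Rbp4 and the chloride channel gene Clic6 (-6.54, adjusted p = 2.6e-07) the lowest epithelial line was PPT-15272.

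Several lists held at most 2 calls. Lists of 15 to 21 genes are too short to set such counts apart from the shares over all genes, 7.4% higher and 6.68% lower. Of 21 proliferation genes 0 were higher or lower, with a median of 0.39, and Top2a, the topoisomerase of dividing cells, lay between 10.54 and 11.65 in the mesenchymal and 9.68 and 11.26 in the epithelial lines (log2 difference 0.46, standard error 0.21, adjusted p = 0.178). Another probe set of Top2a differed by -0.12. Of 18 acinar and islet genes 0 passed in either direction (median 0.01), and without PPT-17728 1 was higher. Of 21 immune markers 0 were higher and 2 were lower, Cd14 (6.19 to 7.87 against 9.10 to 10.91; log2 difference -2.78, adjusted p = 3.37e-07) and Mrc1 (1.87 to 4.39 against 4.60 to 8.40; -3.61, adjusted p = 2.15e-05), receptors for lipopolysaccharide and for mannose. Of 15 endothelial markers 2 were higher and 0 lower, Flt1, a VEGF receptor (1.64, adjusted p = 0.0115), and Plvap (0.97, adjusted p = 9.48e-05). Plvap lay at 3.80 to 5.24 against 2.91 to 3.62, with all epithelial lines below the median of all values. Another probe set of Flt1 was called (1.91, adjusted p = 0.0138). Further ones did not pass, with differences of 1.53 (adjusted p = 0.0702) and 0.74 (adjusted p = 0.068).

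Each line was then placed by probe sets called in a fit that left out its own mouse, so that the line had no part in their choice. Its Cdh1 class had been set before. The mesenchymal lines lay nearer to the mesenchymal than to the epithelial mean for 58.8% to 79.2% of the higher and 62.7% to 81.8% of the lower probe sets. ASC-53909 and PPT-5320 lay nearest to their class in the higher probe sets, and PPT-3250 and PPT-17728 farthest from it. In the epithelial lines other than PPT-5486 the shares were 7.38% to 29.9% and 11.4% to 36.3%, the last in PPT-15272. PPT-5486 lay nearer to the mesenchymal mean for 58.8% of 2871 higher probe sets but only for 31.1% of 2591 lower ones. In the first set it was thus placed like a mesenchymal line and in the second within the range of the other epithelial lines.

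**Figure D3:**
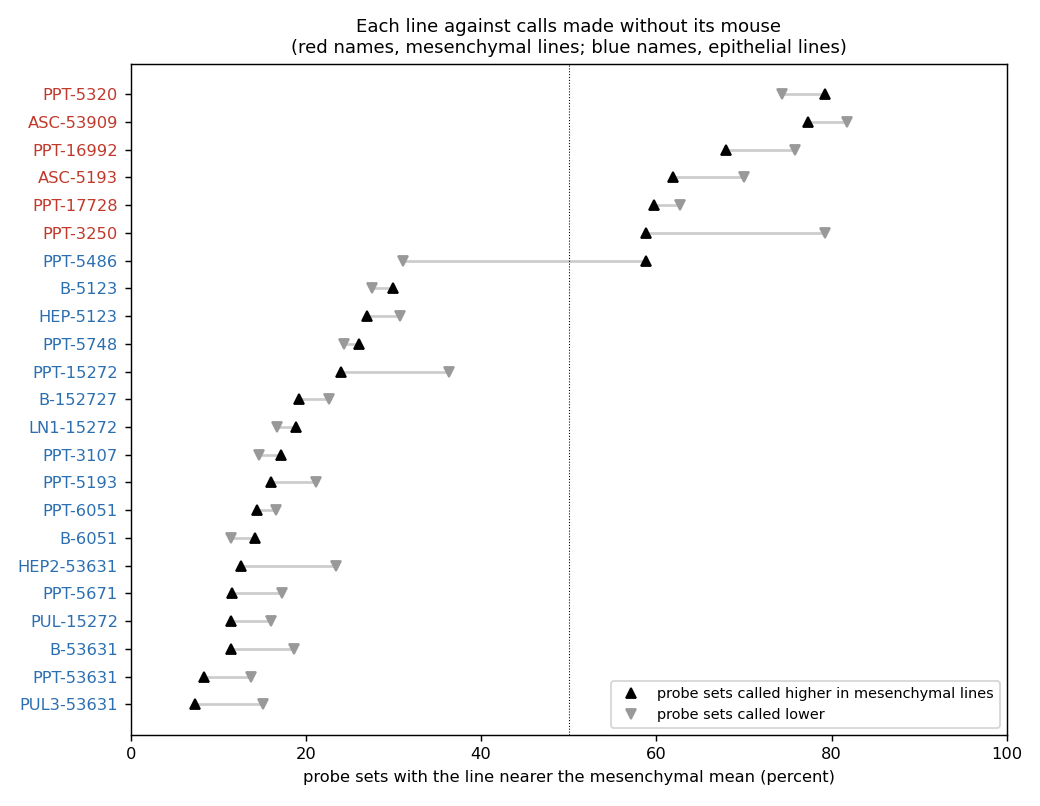
For each line (y axis), the percent of probe sets, called higher (black) or lower (grey) without its mouse, at which the line lay nearer to the mesenchymal mean (x axis). The 6 mesenchymal lines lie right of 50% for both kinds, the epithelial lines left of it, and PPT-5486 has 58.8% and 31.1%.

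Prefix and class were partly entangled. With the prefix, PPT or other, as a covariate over all lines 5117 probe sets were called. Of these, 4856 were among the 5044 of the main fit with the same sign. With the 4 mesenchymal and 8 epithelial PPT lines alone, a fit with fewer lines, 43 of the 101 called named genes did not pass. Besides Perp, Cdh2, Krt8 and Krt18, values moved by over 1.5-fold among these for Krt7 (-5.72, adjusted p = 0.0681), Krt20 (-3.31, adjusted p = 0.329), Plac8 (-2.13, adjusted p = 0.461) and Ctse (-5.05, adjusted p = 0.0504). The same was found for Twist2 (1.76), Col3a1 (6.40), Col1a2 (6.08), Bgn (5.09), Vcan (3.50), Mmp2 (2.72), Fstl1 (3.47) and Fgfr1 (3.82), with adjusted p between 0.0555 and 0.171. Genes that lost the call with smaller shifts were Ctnnb1, Krt23, Foxc1, Foxc2, Snai1, Zeb1, Fosl1, Snai3, Acta2, Gja1, Cspg4, Col8a1, Sdc1, Loxl4, Id3, Id2, Acvr1b, Erbb2, Lrig1, Pdgfrb, Fgfr4, Gata6, Hes1, Sox2, Plvap, Flt1 and Crabp1. Still called, with a shift of over 1.5-fold, were Prrx1 (6.11), Dcn (4.01), Lama4 (2.26), Dkk2 (5.09) and Esm1 (5.05), and Cdh17 (-4.91), Muc1 (-5.12), Lad1 (-3.73), Anxa13 (-6.91), Rbm47 (-2.73), Krt19 (-4.18), Mmp13 (-5.34), Tspan8 (-4.32), Lgals4 (-6.02), Slc40a1 (-3.09) and Cxcl5 (-5.82). No called gene changed sign.

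In single genes of the lists, PPT-5486 likewise stood apart more often in higher than in lower genes. Of 53 junction, keratin, regulator and surface genes called lower, each mesenchymal line was below every epithelial line in 40 to 45. Of 39 EMT factor, cytoskeleton, collagen and matrix genes called higher, a mesenchymal line was above every epithelial line in 10 (PPT-16992) to 29 (ASC-53909). Leaving out PPT-5486 raised these numbers to 21 to 35. PPT-5486 itself exceeded all other epithelial lines in 27 of the 39 genes and was below all of them in 6 of the 53. Since the genes were chosen by the same contrast, these counts are descriptions.

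The classes could be compared within 1 animal, as ASC-5193 was mesenchymal and PPT-5193, from the same mouse, epithelial. With 1 array each this comparison has no test. The Cdh1 signal was 11.50 in PPT-5193 and 2.75 in ASC-5193, a difference of -8.75. Of 2017 probe sets called higher in the fit without this mouse 78.2% were also higher in ASC-5193, and of 2026 called lower 78.4% were lower, against 50.2% and 48.8% of all probe sets. A difference of more than 1 in the same direction was found for 35.7% and 40.0%, against 6.22% and 5.61% of all probe sets. Prrx1 was 2.86 in PPT-5193 and 10.79 in ASC-5193, Col3a1 2.52 and 10.94, and Cd34 4.35 and 12.26. Conversely, Dsp was 10.03 and 2.32, Krt7 12.08 and 2.09, and Krt18 13.18 and 2.46. Zeb1 was 8.33 and 8.83. Mmp13 was 9.07 and 7.36. The Y-linked gene Eif2s3y was 8.22 in PPT-5193 and 2.06 in ASC-5193, and the X inactivation gene Xist was dim in both, 3.98 and 3.89. What this difference between lines of 1 mouse rests on was not tested. Without ASC-5193, 4167 probe sets were called, 2127 higher and 2040 lower, of which 3606 were among the 5044 with the same sign.

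The mesenchymal lines were not uniform, as seen in genes named for a large SD over these 6 lines. Mtap, an enzyme of methionine salvage encoded beside Cdkn2a, was 1.23 in PPT-3250, 1.62 in ASC-53909 and 1.96 in PPT-17728, but 10.50 in PPT-16992, 10.62 in ASC-5193 and 12.21 in PPT-5320. It was likewise divided in the epithelial lines (2.09 to 11.77) and its difference between the classes did not pass (log2 difference -2.68, 95% interval -6.06 to 0.69, adjusted p = 0.330). Cdkn2a, the gene of p16 and p19Arf, was 12.06 in ASC-5193 and 6.89 in PPT-16992 but 2.06 to 2.73 in the other 4 mesenchymal lines, and its difference did not pass either (-1.38, 95% interval -4.86 to 2.09, adjusted p = 0.672). Crabp1, a retinoic acid carrier, was 12.12 in PPT-3250 and 11.20 in ASC-5193, and 2.59 to 5.04 in the others (log2 difference 4.26, adjusted p = 0.00434). It differed by 3.17 without PPT-3250, 3.22 without ASC-5193 and PPT-5193, 4.97 without PPT-16992 and 5.02 without ASC-53909, and over means per mouse it did not pass (adjusted p = 0.0603).

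Esm1, a proteoglycan of activated endothelium, was 1.45 in ASC-5193 and 2.0 in PPT-16992, and 7.32 to 10.57 in the other mesenchymal lines. The epithelial lines had a median of 1.59 (log2 difference 4.41, adjusted p = 0.00211; 3.57 without PPT-5320, 5.24 without PPT-16992 and 5.48 without ASC-5193). Plac8 was 2.53 in ASC-5193, 4.29 in PPT-16992, 7.94 in ASC-53909 and 9.65 in PPT-3250, but 12.09 in PPT-17728 and 12.38 in PPT-5320, near the epithelial median of 12.51. Its log2 difference of -4.10 (adjusted p = 0.00905) was lost without ASC-5193 and PPT-5193 (-2.79, adjusted p = 0.0540) and over means per mouse (adjusted p = 0.10). It was -3.36 without PPT-16992, -4.88 without PPT-17728 and -4.94 without PPT-5320. Xist was 10.69 in PPT-3250 and 11.37 in PPT-17728 and 3.87 to 3.99 in the other mesenchymal lines, and Eif2s3y was 7.99 to 8.85 in PPT-5320, PPT-16992 and ASC-53909. None of the 4 sex-linked genes passed between the classes.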

How the data were processed

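The microarray data of 23 untreated PDAC lines were analysed. The deposited values are log2 signals of Affymetrix mouse genome arrays that the authors had normalised. Their methods name variance stabilisation and the submitters' processing notes RMA, and which of these made the values was not settled. The members and gene lists were chosen with earlier results of these data known. Classes were set by the Cdh1 signal (threshold 8). After 64 control probe sets and the Cdh1 probe set were left out of 45101, 45036 were tested with limma 3.58.1 (R 4.3.3), with class as factor and mouse as random block (within-mouse correlation 0.217), and p-values were adjusted by Benjamini-Hochberg over all of them. An adjusted p under 0.05 is a call. Genes were named through the platform annotation (34945 probe sets with 1 symbol, 932 with several, 9160 with none), and the brightest probe set stood for a gene in a list.

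Named were Cdh1, Esrp2 and Prrx1, the 15 genes with the largest called difference in each direction, the 4 members of each list with the smallest p and up to 2 that ran the other way, EMT factors, keratins and the 10 genes with the largest SD over the mesenchymal lines. Not every gene so named is described. Genes given without a call, except Snai2, Zeb2, Twist1, Prrx2, Top2a, Mtap and Cdkn2a, were marker genes or were picked from the lists after their values had been seen. The alternatives changed the block, scaling, filter, variance model and lines used, and left out each mouse in turn; the fit without ASC-5193 and the list counts without each mouse were added after the data had been seen. The fit was tested on simulated data. The number of arrays, 6 against 17, limits the precision. An allele shared by the lines with a listed genotype is not reported here.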

Additional observations from a re-analysis of the deposited data

Results flagged for a closer look

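Within the 6 mesenchymal lines, 11 of 115 measures held 1 line whose gap to its nearest neighbour exceeded Dixon's critical value as a share of the whole range, by which chance marks about 1 in 20 groups. ASC-5193 was such a line for Snai2 (10.76, the highest), for Col1a2 (4.63), Timp1 (10.97) and the mean of the epithelial markers (3.03, the lowest of each), and for Mmp13 (7.36, the highest). PPT-16992 was high for Ehf (2.89, near the lowest signals of the arrays) and Epha4 (6.78) and low for Bgn (6.88). PPT-3250 was high for Ripk4 (5.73), PPT-5320 for Lgals4 (5.82) and ASC-53909 for Lama4 (8.59). Without ASC-5193 Col1a2 and Mmp13 were still called, and without PPT-16992 so was Bgn, with the values given with the results.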

How the results depend on the processing

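No called probe set changed sign in any alternative, and the total stayed between 3571 and 6122 except with the 12 PPT lines alone, where 1401 were called (628 higher, 773 lower). With 1 mean value per mouse and class 1659 were higher, of 3613 called. Without each mouse in turn the total was 3641 to 5462, with 1802 to 2871 higher and 1832 to 2591 lower. The mouse is the only pairing in the names, and the fit without this replicate block called 5833, of which 4952 were shared. Of 101 called named genes, 89 were called without every single mouse, while 43 lost the call in the PPT lines alone, 10 over means per mouse, 6 without the lines nearest the threshold and 5 without ASC-5193. Without the lines nearest the threshold Acvr1b (-0.75, adjusted p = 0.140), Cspg4 (0.96, adjusted p = 0.0705), Loxl4, Krt20, Zeb1 and Flt1 (1.36, adjusted p = 0.0585) did not pass, and over means per mouse Twist2, Loxl4 and Id2 did not pass either. With quantile normalization once more Loxl4 (adjusted p = 0.057) and Lrig1 (adjusted p = 0.0531) did not pass. With each array centred on its median Loxl4 (adjusted p = 0.0541) and Acvr1b (adjusted p = 0.0591) did not pass. Acvr1b also lost the call without the mouse block (adjusted p = 0.0543). Zeb2 gained a call with centring (adjusted p = 0.0432) and without the block (adjusted p = 0.0483). The cause was not tested. Signals near the lowest values of the arrays leave the size of such differences uncertain, and classes defined by 6 lines from 6 mice limit the precision.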
